A study of Mus musculus with 6 samples.

Results

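The genes described here are p53, encoded by Trp53, and 32 genes named as its regulators or transcriptional targets, 33 genes in all of the 55487 in the count table. They were taken by gene symbol from a list of p53 pathway members, and each matched 1 protein-coding gene. All 33 were among the 16962 genes with enough counts to be tested. The cells were wild-type MEFs (fibroblasts cultured from mouse embryos) at passage 1 (P1, labelled non-senescent) or passage 6 (P6, labelled senescent), a passage being 1 replating of the cells. Cells of both passages received vehicle, α-amyrin at 20 µM or β-amyrin at 20 µM over 3 days, and every one of the 6 conditions has a single library. The age of the embryos, the number of embryos pooled and whether P6 was grown from the same isolate as P1 are not stated in the labels, so passage and isolate cannot be told apart. α-Amyrin and β-amyrin are plant pentacyclic triterpene alcohols, isomers that differ in where 1 methyl group sits on the last ring.

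p53 is a transcription factor that is kept scarce by the ubiquitin ligase Mdm2, itself a p53 target, and that is stabilised when DNA is damaged, oncogenes signal or ribosome assembly fails. It binds pairs of a short, palindromic DNA element and induces genes for cell cycle arrest, apoptosis, DNA repair and metabolic control. In serially passaged MEFs the tumour suppressor p19Arf, a product of Cdkn2a, holds back Mdm2, and the p53 pathway is known to be needed for their arrest in culture. p53 activity is set largely by the stability and modification of the protein, which RNA sequencing does not measure.

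The libraries held between 18798418 counts (P6 α-amyrin) and 28752332 (P1 α-amyrin), and the scarcest member, Gdf15 in P6 vehicle, had 57 counts. All 12 fibroblast markers examined, collagens among them, were detected in every library, with summed levels of 36963 to 44835 CPM (counts after scaling of the libraries to the same depth) at P1 and 51348 to 57227 CPM at P6. Singly, 8 of the 12 fell at P6, Pdgfra and Dcn among them (log2 changes of -2.46 and -1.88), and 2 rose, S100a4 and the fibronectin gene Fn1, which went from 10795 to 13589 CPM to 28955 to 30466 CPM. The 19 macrophage markers all rose at P6, from a sum of 423, 371 and 50.9 CPM in P1 vehicle, α-amyrin and β-amyrin to 5958, 6087 and 4345 CPM, and none was at 0 in any library. The 9 mesothelial and epithelial markers summed to 158 to 194 CPM at P1 and 9.39 to 10.9 CPM at P6, and the 8 muscle markers to 91.8 to 111 CPM and 4.09 to 4.78 CPM, with 2 to 4 muscle markers at 0 in the P6 libraries. The 7 endothelial markers summed to 32.6 to 33.8 CPM at P1 and 13.0 to 29.5 CPM at P6; of the 4 that were tested, Kdr, Tek and Emcn fell and Vwf rose (log2 change 3.36). Every comparison of P6 with P1 below runs alongside these differences, whose part in the members' results was not tested, and in bulk RNA fewer cells of a type and less RNA per cell cannot be told apart.

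The promoters of several members hold letters that match the element, or half-site, that p53 binds in pairs. They are shown because the members with a match did not move in 1 direction. The consensus p53 half-site, 10 bases long and named here rather than spelled since it has variable positions, reads alike on both strands. It was searched for exact matches in RefSeq promoter windows of 250 bases before to 50 after each start (GRCm38.p6), which covered 24 of the 33 members. An exact half-site lay in the windows of 10 of the 24 genes, 41.7%, against 9.55% of 27025 genes with windows. A pair of half-sites with at most 2 mismatches in 20 bases and a spacer of up to 13 bases, which can overlap the exact match, lay in 4 of the 24, 16.7%, against 4.71%. These 4 are shown first, then Trp53 and Mdm2, each as the 250 bases before the start with half-sites in capitals. The spans are Ccng1 chr11:40755287-40755536 (minus strand), Bax chr7:45466899-45467148 (minus strand), Sesn1 chr10:41887189-41887438 (plus strand) (the more downstream of its annotated starts), Gadd45a chr6:67037408-67037657 (minus strand), Trp53 chr11:69580109-69580358 (plus strand) and Mdm2 chr10:117710759-117711008 (minus strand).
Ccng1: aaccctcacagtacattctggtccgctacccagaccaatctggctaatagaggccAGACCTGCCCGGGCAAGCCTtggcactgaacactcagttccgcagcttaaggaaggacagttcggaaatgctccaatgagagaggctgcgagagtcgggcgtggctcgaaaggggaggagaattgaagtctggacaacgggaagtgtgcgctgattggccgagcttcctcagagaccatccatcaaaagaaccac
Bax: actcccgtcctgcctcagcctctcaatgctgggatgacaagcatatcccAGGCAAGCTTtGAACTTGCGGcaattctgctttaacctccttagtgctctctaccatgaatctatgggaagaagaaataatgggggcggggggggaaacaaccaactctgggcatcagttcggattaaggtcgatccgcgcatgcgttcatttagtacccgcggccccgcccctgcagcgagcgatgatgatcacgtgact
Sesn1: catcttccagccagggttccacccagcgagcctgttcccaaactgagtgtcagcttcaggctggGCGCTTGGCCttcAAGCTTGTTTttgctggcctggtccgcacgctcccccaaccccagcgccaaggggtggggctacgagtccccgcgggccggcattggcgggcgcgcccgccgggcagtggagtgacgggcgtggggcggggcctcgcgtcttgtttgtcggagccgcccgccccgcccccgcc
Gadd45a: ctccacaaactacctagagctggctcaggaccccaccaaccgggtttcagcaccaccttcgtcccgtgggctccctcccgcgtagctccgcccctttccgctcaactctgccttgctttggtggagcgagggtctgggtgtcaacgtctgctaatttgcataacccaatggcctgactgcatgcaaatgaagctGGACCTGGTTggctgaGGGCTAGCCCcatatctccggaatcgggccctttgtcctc
Trp53: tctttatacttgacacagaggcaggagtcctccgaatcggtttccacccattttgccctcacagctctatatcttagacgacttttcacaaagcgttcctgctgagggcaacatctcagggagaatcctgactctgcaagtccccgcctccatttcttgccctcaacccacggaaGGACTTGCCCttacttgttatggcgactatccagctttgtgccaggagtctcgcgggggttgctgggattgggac
Mdm2: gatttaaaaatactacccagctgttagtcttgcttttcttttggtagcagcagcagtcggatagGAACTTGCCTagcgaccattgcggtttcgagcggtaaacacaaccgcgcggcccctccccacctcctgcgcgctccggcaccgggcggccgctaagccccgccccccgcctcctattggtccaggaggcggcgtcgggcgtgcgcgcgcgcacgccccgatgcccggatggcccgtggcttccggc

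The Ccng1 pair had 1 mismatch and no spacer and began 195 bases before the start. The pairs of Bax, Sesn1 and Gadd45a each had 2 mismatches, with spacers of 1, 3 and 6 bases, and began 201, 186 and 56 bases before it. The other members with an exact half-site were Aen (GGGCTTGTCC), Ddit4l (GGGCTTGCCT), Ei24 (GGGCATGCCC) and Polk (GAACTAGCCT). For Polk it lay only in the window of the more downstream of its annotated starts. Set beside the passage results below, a half-site was present in 3 of 7 windowed members that rose at P6 (Ccng1, Mdm2, Sesn1), in 4 of 10 that fell (Aen, Bax, Polk, Trp53) and in 3 of 7 that passed the test in neither direction (Ddit4l, Ei24, Gadd45a). These are matches of letters in a short window, and p53 binding was not measured. The known p53 elements of Mdm2 lie in its first intron, outside the window.

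Levels of different members can be compared only per length, here as the authors' FPKM averaged over the 6 libraries. Ccng1, which encodes cyclin G1, stood highest at 285 FPKM (254 to 312 over the libraries), and Phlda3, an inhibitor of Akt at the membrane, followed at 148 FPKM (137 to 168). Their ranges did not overlap each other or that of any other member. The apoptotic pore former Bax at 76.2 FPKM (66.6 to 85.2) and Mdm2 at 67.4 FPKM (59.1 to 77.1) came next with overlapping ranges, followed by Plk2 at 47.3 FPKM (37.4 to 58.5). In all, 18 members lay between 10 and 100 FPKM, Trp53 among them at 29.1 (22.3 to 36.2), and 13 lay below 10. At the bottom were the DNA repair genes Xpc at 2.88 FPKM (2.39 to 3.42), Rrm2b at 2.40 (1.83 to 3.09) and Ddb2 at 1.44 (0.955 to 1.93). With them stood the secreted stress factor Gdf15 at 2.36 (1.49 to 3.19), and the ranges of these 4 overlapped in part. The place of Ddb2 is uncertain. It had 11.7 to 25.1 CPM over 2736 exonic bases, and Rrm2b had 15.9 to 26.9 CPM over 9134. Per exonic base its counts were thus above those of Rrm2b, although its FPKM was below. How the FPKM were computed is not stated in the labels.

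The comparison of P6 with P1 asks how members differ between senescent and non-senescent MEFs. At P6, 13 members rose and 11 fell, while Trp53 itself fell to 0.65 of its P1 level and the largest rise was that of Sesn1, 2.49-fold. The other 9 passed the test in neither direction. The test was edgeR's quasi-likelihood test on all 6 libraries with treatment as a term, at an adjusted p (Benjamini-Hochberg over all genes tested) below 0.05. Of all tested genes 30% rose and 29.1% fell, 59.2% in either direction, beside 72.7% of the members. The members' median log2 change was 0.06 and that of all tested genes 0.00, and the median size without sign was 0.31 against 0.38, so the members spread to both sides of 0. Changes called and at least 1.5-fold were found for 6 members upward (Pmaip1, Perp, Fas, Ddb2, Sesn1 and Dglucy; 16.9% of all tested genes) and 3 downward (Trp53, Eda2r and Gdf15; 13%). The rises ran from 1.14-fold to 2.49-fold and the falls had sizes from 1.14-fold to 1.74-fold. All 3 P6 libraries lay above all 3 P1 libraries for 12 members (32.5% of all tested genes) and below them for 11 (32.2%), and the passages overlapped for 10. The summed level of the 33 members was 3659, 3615 and 3875 CPM at P1 and 3687, 3827 and 3923 CPM at P6, in the order vehicle, α-amyrin and β-amyrin, which is also the order of all values below. Abundant members weigh most in that sum, Ccng1 with 857 to 1052 CPM and Mdm2 with 291 to 376 CPM.

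**Figure D1:**
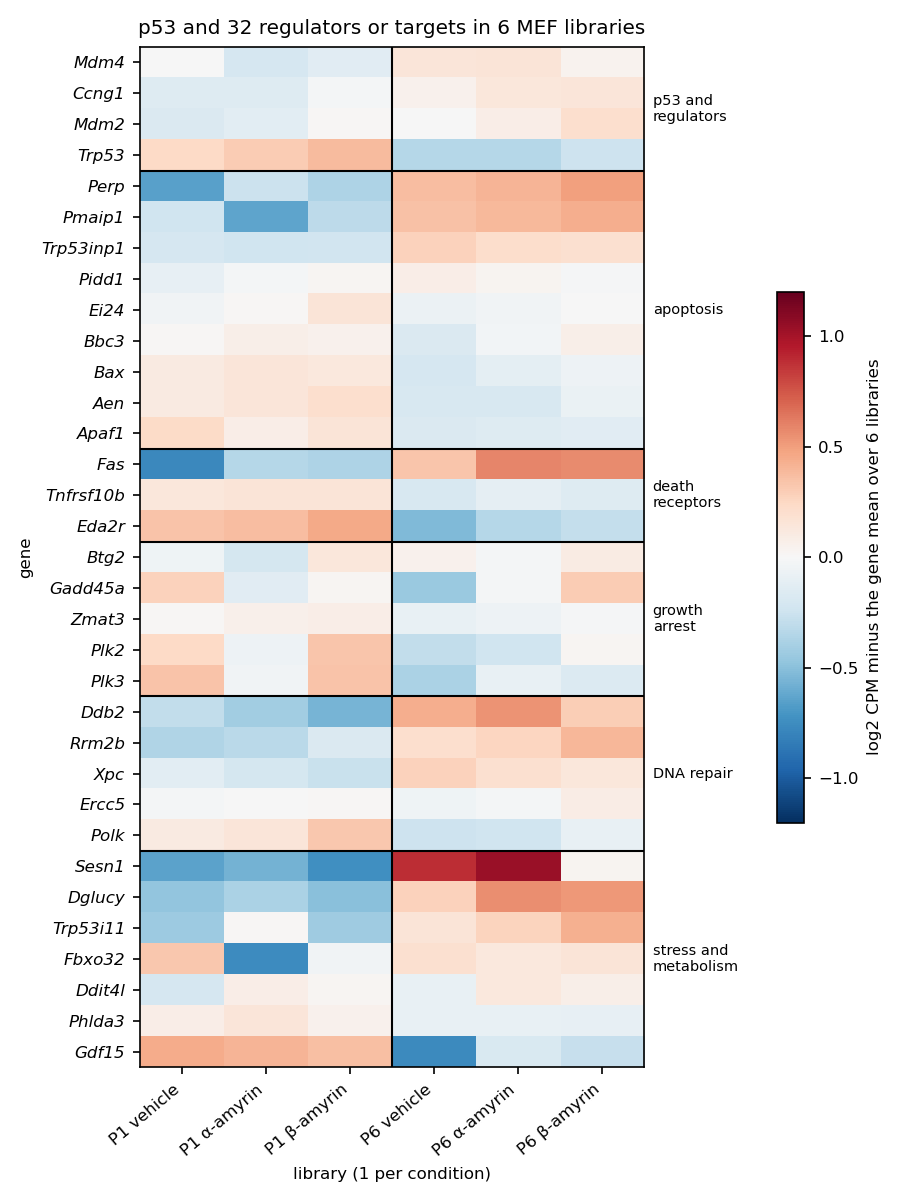
Level of each of the 33 members in each of the 6 libraries, as the log2 ratio of its CPM to that member's own mean, with members grouped by role. Members higher and members lower at P6 stand side by side in most roles, and Sesn1 has the widest span, from 15.6 to 53.4 CPM.

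Among p53 and its direct regulators, 3 rose (30% of all tested genes) and 1 fell (29.1%). Trp53 (ENSMUSG00000059552, chr11:69580359-69591873, plus strand) stood at 131, 137 and 144 CPM at P1 and at 87.2, 87.0 and 93.4 CPM at P6. All P6 libraries lay below all P1 libraries, and the log2 change of -0.62 ± 0.04 (SE, n = 3 libraries a passage) was called (edgeR adjusted p = 4.6e-05). Mdm2 (ENSMUSG00000020184, chr10:117688875-117710758, minus strand), the ubiquitin ligase of p53, had 291, 300 and 330 CPM at P1 and 326, 345 and 376 CPM at P6. Each treatment was higher at P6 although the passages overlapped, since P1 β-amyrin exceeded P6 vehicle, and the log2 change was 0.19 ± 0.04 (edgeR adjusted p = 0.00659). Mdm4, the partner of Mdm2 that masks the activation domain of p53, had 73.8, 64.5 and 67.7 CPM at P1 against 81.7, 82.7 and 76.4 CPM at P6. The groups did not overlap, and its log2 change of 0.23 ± 0.06 (edgeR adjusted p = 0.013) became 0.16 without the P1 α-amyrin library (adjusted p = 0.0692) and 0.16 without P6 α-amyrin (adjusted p = 0.0604), each no longer called. Ccng1 (ENSMUSG00000020326, chr11:40748552-40755311, minus strand), whose product recruits a phosphatase to Mdm2, had 857, 857 and 941 CPM at P1 and 990, 1045 and 1052 CPM at P6. Its P6 libraries all lay above the P1 libraries by a log2 change of 0.22 ± 0.04 (edgeR adjusted p = 0.0045). The transcript of p53 thus fell while those of Mdm2, Mdm4 and Ccng1 rose, by 1.14-fold, 1.17-fold and 1.16-fold. Of these 3 rises, that of Ccng1 alone was called in all 13 settings tried. The rise of Mdm2 was not called when treatment was left out of the fit (edgeR adjusted p = 0.0576).

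Of the 9 members of the intrinsic apoptosis pathway, 3 rose (30% of all tested genes) and 3 fell (29.1%). The other 3 passed the test in neither direction. Pmaip1, which encodes the BH3-only protein Noxa, had 67.5, 51.4 and 64.1 CPM at P1 and 102, 104 and 108 CPM at P6, with no overlap and a log2 change of 0.78 ± 0.08 (edgeR adjusted p = 0.000204). Perp (ENSMUSG00000019851, chr10:18845020-18857073, plus strand), a tetraspan membrane protein of desmosomes and of p53-dependent death, had 30.3, 39.9 and 36.9 CPM at P1 and 61.4, 63.2 and 67.0 CPM at P6. Its log2 change was 0.85 ± 0.08 (edgeR adjusted p = 0.000109), again without overlap. Trp53inp1, a nuclear and autophagy-linked cofactor of p53, rose by 0.45 ± 0.04 on the log2 scale, with P1 libraries of 198 to 202 CPM and P6 libraries of 266 to 282 CPM.

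Bax (ENSMUSG00000003873, chr7:45461697-45466898, minus strand) moved the other way, with 124, 127 and 125 CPM at P1 and 99.5, 106 and 110 CPM at P6. No P6 library reached the P1 libraries, and the log2 change was -0.25 ± 0.05 (edgeR adjusted p = 0.00356). Apaf1, the scaffold of the apoptosome, fell by 0.31 ± 0.05 on the log2 scale, from 99.6 to 110 CPM to 83.3 to 85.3 CPM, and Aen, a nuclease of apoptosis, fell by 0.30 ± 0.04. Bbc3, the BH3-only protein Puma, had a log2 difference of -0.09 (95% interval -0.26 to 0.07), Ei24 of -0.08 (-0.20 to 0.03) and Pidd1, the platform that activates caspase-2, of 0.06 (-0.10 to 0.23). All 3 intervals include 0. The BH3-only genes Pmaip1 and Bbc3 thus gave values of 1.72-fold and 0.94-fold in the same libraries.

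Of the death receptors, 1 rose (30% of all tested genes) and 2 fell (29.1%). Fas (ENSMUSG00000024778, chr19:34290666-34327772, plus strand), the receptor of Fas ligand, had 10.4, 14.0 and 13.7 CPM at P1 and 22.4, 26.7 and 26.3 CPM at P6. It was 1.98-fold higher with no overlap, a log2 change of 0.99 ± 0.08 (edgeR adjusted p = 6.25e-05). Eda2r (ENSMUSG00000034457, chrX:97333840-97377216, minus strand), the receptor of ectodysplasin A2, had 151, 154 and 164 CPM at P1 and 82.4, 94.0 and 97.6 CPM at P6. All P6 libraries were lower, by a log2 change of -0.78 ± 0.05 (edgeR adjusted p = 3.16e-05). Tnfrsf10b, the mouse TRAIL receptor, fell by 0.30 ± 0.04, from 140 to 142 CPM to 111 to 118 CPM.

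None of the 5 members of growth arrest rose (30% of all tested genes did) and 2 fell (29.1%). The other 3 passed the test in neither direction. Plk2, a polo-like kinase, had 241, 196 and 257 CPM at P1 and 166, 174 and 209 CPM at P6, so that P6 β-amyrin overlapped the P1 range while each treatment was lower at P6. Its log2 change was -0.34 ± 0.07 (edgeR adjusted p = 0.00558). Plk3, another polo-like kinase, had 17.7 to 23.2 CPM at P1 against 14.0 to 17.1 CPM at P6 and a log2 change of -0.43 ± 0.13 (edgeR adjusted p = 0.0244). That call was lost without the P1 vehicle library (log2 change -0.29, adjusted p = 0.109) and without P6 vehicle (-0.29, adjusted p = 0.112).
Gadd45a, which encodes a stress sensor that restrains the cell cycle, had 31.3, 23.6 and 26.3 CPM at P1 and 19.0, 25.5 and 32.0 CPM at P6. The passages overlapped fully, and the log2 difference was -0.10 ± 0.18 (edgeR adjusted p = 0.654), turning to 0.19 when either vehicle library was left out. Gadd45a shares 19.1% of its exonic bases with the opposite-strand gene E230016M11Rik, which had 157 to 286 counts. The labels do not say whether counting used strand, so reads of the 2 genes may not be told apart. Btg2, an antiproliferative cofactor, had a log2 difference of 0.09 (95% interval -0.05 to 0.22). The RNA-binding protein gene Zmat3 had 238 to 251 CPM at P6, all below the 256 to 268 CPM of P1, yet its log2 difference of -0.11 ± 0.04 was not called (edgeR adjusted p = 0.0603).

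**Figure D2:**
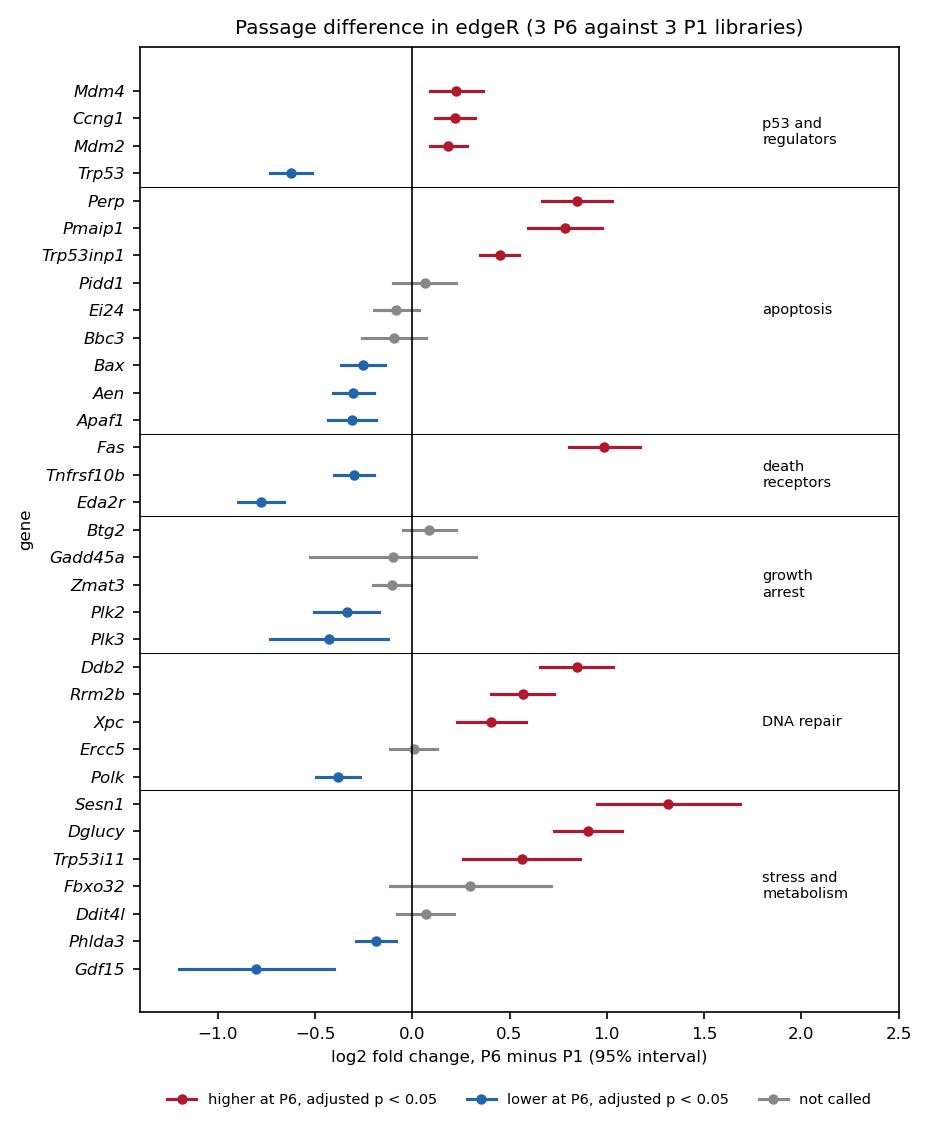
Log2 change of each member from P1 to P6 with its 95% interval from edgeR, grouped by role and coloured by whether it was called higher, lower or neither. The 33 estimates span -0.80 (Gdf15) to 1.32 (Sesn1), and called members lie on both sides of 0.

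Of the 5 DNA repair members, 3 rose (30% of all tested genes), 1 fell (29.1%) and 1 passed the test in neither direction. Ddb2 (ENSMUSG00000002109, chr2:91211572-91236982, minus strand), a damage sensor of nucleotide excision repair, had 14.1, 13.0 and 11.7 CPM at P1 and 23.4, 25.1 and 21.2 CPM at P6. The groups were well apart, with a log2 change of 0.84 ± 0.08 (edgeR adjusted p = 0.000133). Ddb2 shares 23.8% of its exonic bases with the opposite-strand gene Acp2, whose counts were 1434 to 1745 at P1 and 1926 to 2270 at P6, so reads from the shared bases may not be told apart. Xpc, the partner sensor of that pathway, had 12.7 to 14.0 CPM at P1 and 16.8 to 18.6 CPM at P6, and its log2 change was 0.41 ± 0.07 (edgeR adjusted p = 0.00309). Rrm2b, the p53-inducible small subunit of ribonucleotide reductase, rose 1.48-fold, from 15.9 to 18.2 CPM to 23.4 to 26.9 CPM. In contrast, Polk, a translesion DNA polymerase, fell by 0.38 ± 0.05 on the log2 scale with no overlap (74.4 to 86.4 CPM against 58.1 to 65.0 CPM). Ercc5, the nuclease that cuts on the 3′ side of a lesion, had a log2 difference of 0.01 (95% interval -0.11 to 0.13). Over the alternative settings described below, the log2 change of Ddb2 ran from 0.43 to 0.89. The sensors of helix-distorting damage, Ddb2 with the limit of its overlap, and the nucleotide supply gene thus rose, whereas the bypass polymerase fell.

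Of the 7 members of stress and metabolic control, 3 rose (30% of all tested genes) and 2 fell (29.1%). The other 2 passed the test in neither direction. Sesn1 (ENSMUSG00000038332, chr10:41809935-41908424, plus strand), a sestrin that restrains mTORC1, had 16.7, 17.6 and 15.6 CPM at P1 and 48.3, 53.4 and 26.7 CPM at P6. Every P6 library was above every P1 library, but P6 β-amyrin stood apart from the other P6 libraries. The log2 change was 1.32 ± 0.15 (edgeR adjusted p = 0.000373) and 1.55 without the P6 β-amyrin library. Dglucy (ENSMUSG00000021185, chr12:100779057-100896981, plus strand), a mitochondrial D-glutamate cyclase, had 19.2, 20.5 and 18.8 CPM at P1 and 32.2, 39.1 and 38.2 CPM at P6. It rose by a log2 change of 0.90 ± 0.07 (edgeR adjusted p = 7.58e-05) without overlap. Trp53i11 had 7.71, 10.5 and 7.76 CPM at P1 and 11.6, 12.6 and 14.0 CPM at P6, and its log2 change was 0.56 ± 0.13 (edgeR adjusted p = 0.00764).

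Gdf15 (ENSMUSG00000038508, chr8:70629393-70632456, minus strand), a cytokine secreted under stress, had 5.56, 5.44 and 5.27 CPM at P1 and 2.41, 3.61 and 3.38 CPM at P6. It was lower in each P6 library, by a log2 change of -0.80 ± 0.17 (edgeR adjusted p = 0.0055), the member with the lowest counts. Phlda3 fell by 0.19 ± 0.04, from 233 to 249 CPM to 211 to 212 CPM. Ddit4l, an inhibitor of mTORC1 signalling, had a log2 difference of 0.07 (95% interval -0.08 to 0.22). Fbxo32 (ENSMUSG00000022358, chr15:58175879-58214932, minus strand), a ubiquitin ligase subunit of muscle atrophy, had 24.8, 11.8 and 19.3 CPM at P1 and 22.8, 21.8 and 22.1 CPM at P6. The P1 libraries enclosed those of P6, and the log2 difference was 0.30 ± 0.17 (edgeR adjusted p = 0.18). Fbxo32 did pass the test with no filter on low counts (0.29, edgeR adjusted p = 0.0452). It also passed without the P1 vehicle library (0.51, edgeR adjusted p = 0.0439) and without P6 vehicle (0.52, edgeR adjusted p = 0.0413).

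**Figure D3:**
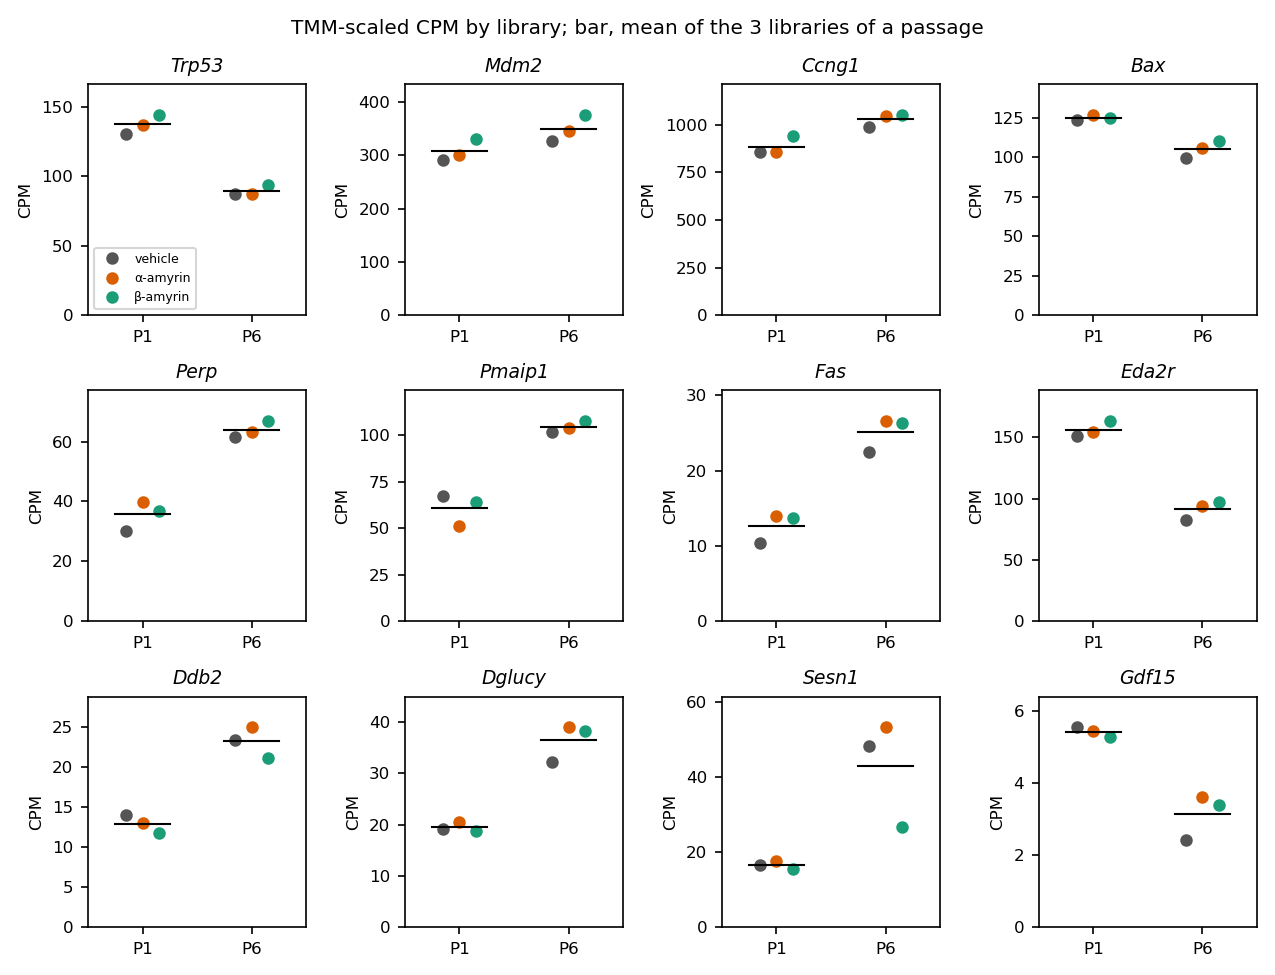
CPM of 12 members in each library, 1 point per library, with P1 and P6 side by side, treatments in colour and a bar at the mean of the 3 libraries, on a CPM axis that starts at 0 in each panel. Trp53, Bax, Eda2r and Gdf15 are lower in every P6 library, and Pmaip1, Perp, Fas, Ddb2, Sesn1 and Dglucy are higher.

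The passage difference had the same sign in all 3 treatments for 14 members upward (38.4% of all tested genes) and 13 downward (37.9%). Pairs of single libraries have no replicate and hence no test, and were described by a 2-fold size with at least 5 CPM in 1 of the libraries. By that size Perp, Fas and Sesn1 were higher and Gdf15 lower in P6 vehicle than in P1 vehicle (9.44% of all tested genes passed it). Pmaip1 and Sesn1 passed it with α-amyrin (9.69%), and Dglucy with β-amyrin (9.56%). The log2 ratios of P6 to P1 for Sesn1 were 1.53, 1.6 and 0.77, and those of Gdf15 were -1.18, -0.58 and -0.63. For Fas they were close to each other at 1.10, 0.92 and 0.94, and for Gadd45a they differed in sign at -0.72, 0.11 and 0.28. Within P1, where the macrophage markers differed most between treatments, they summed to 371 CPM with α-amyrin and 50.9 CPM with β-amyrin, while the log2 ratios of α-amyrin to β-amyrin ran from -0.32 (Pmaip1) to 0.44 (Trp53i11) for the 13 risen members and from -0.39 (Plk2) to 0.10 (Phlda3) for the 11 fallen ones. Whether the markers and the members are related was not tested.

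Genes that act upstream of p53 or beside it were counted in the same way. Of 26 tested regulators of the pathway, 4 rose (Cdkn2a, Hipk2, Prkdc and Ep300), 13 fell and 9 passed in neither direction. Of all tested genes 30% rose and 29.1% fell. The median log2 change of the regulators was -0.17. Cdkn2a, which encodes p16Ink4a and p19Arf, had 19.4, 17.2 and 17.4 CPM at P1 and 115, 116 and 115 CPM at P6, and its log2 change was 2.68 ± 0.06 (edgeR adjusted p = 9.71e-07). Its counts do not part the 2 products. Chek1, the kinase of the replication checkpoint, fell by 1.07 ± 0.09, and Topors, a ubiquitin and SUMO ligase of p53, by 0.62 ± 0.05. So did the ribosomal protein genes Rpl5 (-0.49) and Rpl11 (-0.40), whose free proteins bind Mdm2.

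In a further list of 44 p53 targets, 18 rose (30% of all tested genes), 16 fell (29.1%) and 10 passed in neither direction. Their median log2 change was 0.01 (Ppm1d, a phosphatase of p53, stands in this list and in that of the regulators). Thbs1, the matrix protein thrombospondin-1, rose by 1.00 ± 0.05 and the phosphatase gene Ptp4a3 by 1.08 ± 0.06, whereas Ckap2, a spindle protein, fell by 1.00 ± 0.06. Cdkn1a, the p21 inhibitor through which p53 arrests the cell cycle, had 533, 566 and 558 CPM at P1 and 524, 572 and 567 CPM at P6. The passages overlapped, and the log2 difference was 0.01 (95% interval -0.09 to 0.10; edgeR adjusted p = 0.922). Of 20 proliferation genes known to be repressed downstream of p53 and p21, 18 fell (29.1% of all tested genes) and 2 rose (E2f1 and E2f2; 30%). Their median log2 change was -1.29. Rrm2, the reductase subunit of dividing cells and the counterpart of Rrm2b, fell by 1.55 ± 0.05, Ccnb1 by 1.52 ± 0.06 and Top2a by 1.29 ± 0.05.

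The amyrins were compared with vehicle and with each other at the same dose and duration, with the passages as the samples of each treatment. No member was called for α-amyrin against vehicle, β-amyrin against vehicle, α-amyrin against β-amyrin, or the passage-by-amyrin term. By edgeR the calls over all tested genes were 0.0295%, 0.0059%, 0.059% and 0%. At an unadjusted p below 0.05 there were 3, 7, 5 and 1 members, beside 11.8%, 10.3%, 9.21% and 2.66% of all tested genes. DESeq2 called no member in any of the 4 comparisons either, while over all genes it called 100 higher and 106 lower, 29 and 86, 82 and 40, and 4 and 17. With no filter on low counts edgeR did call members: Fbxo32 for α-amyrin, Sesn1 for β-amyrin, Sesn1 and Plk2 between the isomers, and Gadd45a for the passage-by-amyrin term. The 95% intervals for α-amyrin against vehicle lay within 2-fold of no difference for 32 members (Fbxo32 was the exception), for β-amyrin against vehicle for all 33, and for α-amyrin against β-amyrin for 32 (the exception was Sesn1). Within 1.5-fold lay 30, 29 and 30 of them. The share of all tested genes with intervals within these sizes was not computed, so these counts cannot be set against it. The median log2 change of the members was 0.03 with α-amyrin and 0.11 with β-amyrin, against 0.01 and 0.00 over all tested genes. Both contrasts share the vehicle libraries.

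Fas had the lowest adjusted p of the members for α-amyrin. At P1 it stood at 10.4 CPM in vehicle and 14.0 and 13.7 CPM with the amyrins, and at P6 at 22.4 against 26.7 and 26.3 CPM. Each amyrin library was thus above the vehicle library of its passage, with log2 differences of 0.33 ± 0.09 for α-amyrin (edgeR adjusted p = 0.289) and 0.31 ± 0.09 for β-amyrin (edgeR adjusted p = 0.408), which do not pass the test. Ddit4l, likewise above vehicle in all 4 amyrin libraries, had a log2 difference of 0.25 ± 0.08 with α-amyrin (edgeR adjusted p = 0.318). With β-amyrin the lowest adjusted p was that of Mdm2, with a log2 difference of 0.19 ± 0.05 (edgeR adjusted p = 0.323), higher than vehicle at both passages.

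Fbxo32 was the single member with a 2-fold difference between treatments of 1 passage. Its P1 level was 24.8 CPM in vehicle and 11.8 CPM with α-amyrin, a log2 ratio of -1.07 (0.33% of all tested genes passed this size in that pair), and the ratio at P6 was -0.07. Over both passages the α-amyrin difference was -0.56 ± 0.21 (95% interval -1.07 to -0.06; edgeR adjusted p = 0.379). It was -0.16 without the P1 α-amyrin library, and with no filter on low counts it was called (edgeR adjusted p = 0.0257).

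Between the isomers, the members with an unadjusted p below 0.05 were Mdm2, Btg2, Plk2, Polk and Sesn1. Sesn1 was 53.4 CPM with α-amyrin and 26.7 CPM with β-amyrin at P6, a log2 ratio of 1.00, but 17.6 and 15.6 CPM at P1. The difference of α-amyrin minus β-amyrin over both passages was 0.60 ± 0.19 (edgeR adjusted p = 0.425), and β-amyrin minus vehicle was -0.50 ± 0.19 (edgeR adjusted p = 0.469), neither called. Without the P1 β-amyrin library, when P6 β-amyrin alone stands for that compound, these values were 0.98 (edgeR adjusted p = 0.000473) and -0.87 (edgeR adjusted p = 0.000986). Without the P6 β-amyrin library they were 0.19 and -0.08. With no filter on low counts both were called (edgeR adjusted p = 0.00519 and 0.0385). Plk2 was lower with α-amyrin than with β-amyrin at both passages (196 against 257 CPM, and 174 against 209 CPM), a log2 difference of -0.33 ± 0.09 (95% interval -0.53 to -0.12; edgeR adjusted p = 0.33, and 0.00524 with no filter). For neither gene did the isomers differ beyond the threshold with all libraries and the filter, and the intervals do not show that they act alike.

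**Figure D4:**
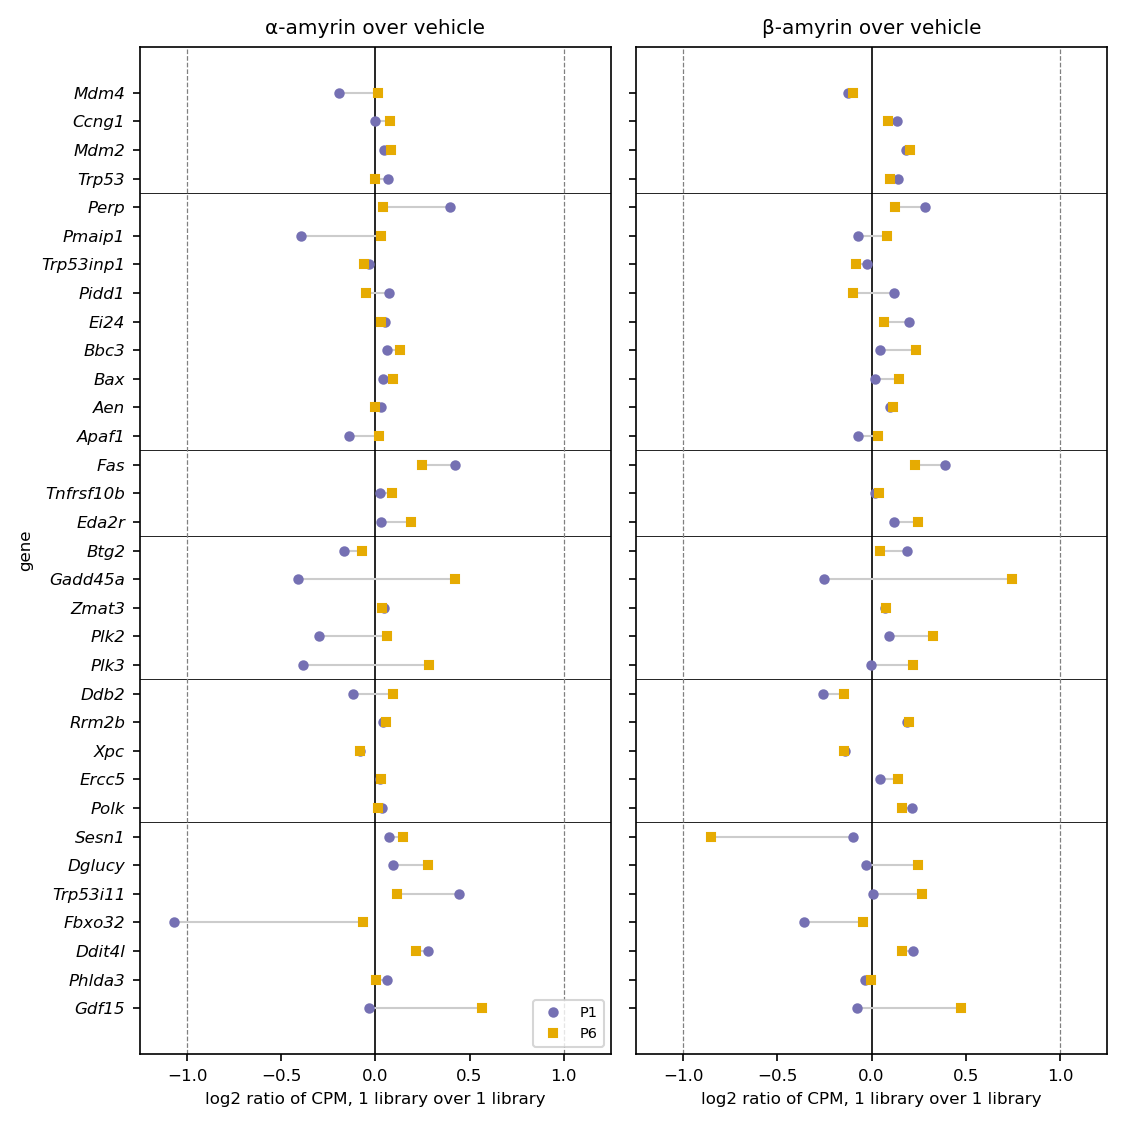
Log2 ratios of CPM between single libraries for each member, α-amyrin over vehicle on the left and β-amyrin over vehicle on the right, with circles for P1, squares for P6 and dashed lines at 2-fold. The points farthest from 0 are Fbxo32 with α-amyrin at P1 (-1.07) and Sesn1 with β-amyrin at P6 (-0.85).

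Gadd45a was the member with an unadjusted p below 0.05 for the passage-by-amyrin term. At P1 both amyrin libraries were below vehicle (log2 ratios of -0.41 and -0.25), and at P6 both were above it (0.42 and 0.75). The term, in which the isomers of a passage count as samples of 1 amyrin group, was 0.93 ± 0.23 (95% interval 0.38 to 1.48) and did not pass (edgeR adjusted p = 1.00, and 0.00206 with no filter on low counts). Of the 33 members, 28 had an interval for this term within 2-fold of none. The share of all tested genes was not computed here either.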

How the data were processed

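Poly(A) RNA was sequenced from 6 MEF libraries, 1 for each passage and treatment, made with a strand-keeping kit, per the labels' protocols. Build mm10 and the programs HISAT2 2.1.0 (alignment), featureCounts 1.6.3 (counting), Trimmomatic 0.38, FastQC 0.11.7 and SAMtools 1.9 are named per the submitters' processing notes, without settings. The deposited counts are whole numbers of reads per gene that the authors had not normalized, and they entered the main tests. The deposited FPKM values, which the authors scaled for gene length and library size, served for levels between genes and as an alternative. Within a gene they were not a fixed multiple of the counts (per count and relative to P1 vehicle, 0.966 to 1.32 in P6 β-amyrin, 5th to 95th percentile of 12336 genes).

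Counts were scaled by TMM to CPM and filtered with filterByExpr by passage. edgeR 4.0.16 in R 4.3.3 (estimateDisp, glmQLFit, glmQLFTest) fitted passage and treatment as additive terms over the 6 libraries, leaving 2 residual degrees of freedom, which come from departures from additivity, and 4.83 prior ones. Common biological variation was 7.72% as a coefficient. The passage-by-amyrin term came from a fit of passage, amyrin and their product. Standard errors follow from each gene's estimate and test statistic, with 95% intervals. The procedure was tested on simulated data. Single pairs were described by log2 CPM ratios with a prior count of 2. Nothing in the labels says that libraries came from separate cultures, so p-values measure only the spread between these libraries, which may be technical. Alternatives used RLE scaling, no filter, DESeq2 1.42.0, limma 3.58.1 on log2(FPKM + 1) or log2(FPKM + 0.1), passage alone, and each library left out in turn.

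Members and gene lists were chosen with earlier results of these data known. All 33 members are accounted for; given in every library were those called for passage at 1.5-fold or more, those 2-fold apart in a single pair, and Trp53, Mdm2, Mdm4, Ccng1 and Bax. Gadd45a, Plk2 and Trp53i11 were also given in every library after their values were seen. From each further list the 3 called genes with the smallest adjusted p were named, plus Cdkn1a and Cdkn2a; genes beyond that, such as Rpl5, Rpl11 and E2f1, were named after their values were seen. Of the listed symbols, Rfwd2 and 9630033F20Rik matched no row, their newer symbols Cop1 and Tigar did. Promoter windows came from RefSeq (GRCm38.p6). Coordinates of genes are GRCm38 (mm10) and equal in GENCODE M21 for all 33.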

Additional observations from a re-analysis of the deposited data

How the results depend on the processing

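Of the 24 members called for passage, all 24 were called with RLE scaling, with no filter on low counts and with DESeq2, 23 with limma on FPKM (without Plk3) and 20 with limma and no filter (without Mdm4, Plk3, Xpc and Trp53i11). Mdm2 was not called when treatment was left out of the fit (edgeR adjusted p = 0.0576). Fbxo32 was called in addition with no filter on low counts and without either vehicle library. No member was called in the opposite direction, and 19 were called in all 13 settings tried. With 1 library left out, 12 to 14 members rose and 10 to 11 fell, while over all genes 4251 to 4647 rose and 4169 to 4705 fell. Of the pathway regulators, 2 rather than 4 rose with limma on log2(FPKM + 0.1) and with limma and no filter. Of the proliferation genes, 1 rather than 2 rose with limma on log2(FPKM + 1) and on log2(FPKM + 0.1), both filtered. No paired analysis was possible because the labels give no replicate numbers to pair by. The treatment term already sets P6 against P1 within each treatment.

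The compound calls depended on the setting. For α-amyrin against vehicle the 2 genes called higher and 3 lower became 220 and 244 with no filter, 100 and 106 with DESeq2, 0 and 0 with limma, and 0 to 175 and 0 to 192 with 1 library left out. For β-amyrin the 1 higher and 0 lower became 82 and 322 with no filter, 29 and 86 with DESeq2, 0 higher with limma, 2 lower with RLE scaling, and 0 to 49 and 0 to 298 with 1 library left out. For α-amyrin against β-amyrin the 8 higher and 2 lower became 351 and 133 with no filter, 82 and 40 with DESeq2, 0 and 0 with limma, and 0 to 361 and 0 to 78 with 1 library left out. The passage-by-amyrin term went from 0 to 101 higher and 58 lower genes with no filter, and to 4 and 17 with DESeq2. With no filter, 1 member was called in each of 5 cases: Fbxo32 lower with α-amyrin (adjusted p = 0.0257), Sesn1 lower with β-amyrin (0.0385), Sesn1 higher (0.00519) and Plk2 lower (0.00524) for α-amyrin against β-amyrin, and Gadd45a for the passage-by-amyrin term (0.00206). With 1 library left out, 0 to 1 members were called lower for β-amyrin and 0 to 1 higher for α-amyrin against β-amyrin, in each case Sesn1. The cause was not tested. At 1.5-fold in place of 2-fold, 13 members instead of 6 passed in a passage pair and 3 instead of 1 in a compound pair. With FPKM 0 did in a compound pair. In any of the 9 pairs, 7 members passed the 2-fold size, beside 12.9% of all tested genes. The share of all tested genes at 1.5-fold was not computed, so the counts at that size cannot be set against it.

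Differences near 0 changed sign. Over all settings tried, Pidd1 ran from -0.0044 to 0.11, Gadd45a from -0.32 to 0.19, Ercc5 from -0.038 to 0.026 and Cdkn1a from -0.019 to 0.012. Pidd1 was negative without P1 vehicle, and Gadd45a was 0.19 without either vehicle library. Ercc5 was -0.0024 with no filter, -0.0073, -0.0080 and -0.0073 with limma, and negative without either β-amyrin library. Cdkn1a was -0.0050 with no filter, -0.014 with limma, and negative without P1 α-amyrin or either β-amyrin library. The cause was not tested. The lowest count of any member was 57, for Gdf15 in P6 vehicle.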
